A study of Mus musculus with 4 samples.

Results

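The DNA repair genes described here are 34 genes chosen by function: damage sensors and checkpoint kinases, end joining, homologous recombination, base and nucleotide excision repair, and mismatch repair. They were found by symbol in 4 single-cell tables of brain myeloid cells, 33 were measured among 15690 genes in all, and Apex1 was not analysed here. The rule that lists them uses no measured value.

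Single cells were sorted from the brains of tumor-bearing mice into 384-well plates, 1 plate per group, as bone marrow-derived macrophages (BMDM) or microglia, the resident macrophages of the brain. All mice were athymic nude animals on the Balb/C background (CAnN.Cg-Foxn1nu/Crl), a strain whose Foxn1 mutation leaves it without a normal thymus and therefore short of T cells. One plate of each sort came from mice without whole brain radiation therapy (WBRT), with the tumor stage given as small. The other came from mice given WBRT of 5 fractions of 2 Gy, with the label naming day 3 and the tumor stage given as not stratified. The labels do not say from when the day is counted, how many animals a plate holds, or the tumor line or age of the mice. WBRT cannot be told apart from the tumor stage or from the plate. Values are given for BMDM first, without and then with WBRT, and after that for microglia in the same order.

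Ionizing radiation breaks DNA strands and damages bases. Double-strand breaks are sensed by the kinases ATM, ATR and DNA-PKcs, marked by phosphorylation of the histone H2AX, and closed either by end joining, available in every phase of the cell cycle, or by homologous recombination, which copies the sister chromatid after replication. Damaged bases and single-strand breaks are handled by base excision repair, bulky lesions by nucleotide excision repair, and replication errors by mismatch repair. Several repair factors, among them DNA ligase I and replication protein A, also work at the replication fork. Most of these proteins are regulated by modification and recruitment, which RNA counts do not measure.

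After filtering, 234, 262, 157 and 151 wells remained with 1265842, 2513025, 874710 and 649107 transcript counts, and the median well held 4388, 8894, 4789 and 2546 counts. By the plate method the labels cite, identifiers count transcripts at 1 end, so levels of genes are compared without a length correction. A gene's counts were summed over the wells of a library and are given as CPM, that is scaled to the library's total of endogenous counts. Synthetic ERCC spike-in RNA made up a median of 7.04%, 7.86%, 6.92% and 30.6% of a well's counts, so that microglia with WBRT stood apart with less cellular RNA per spike-in. The 10 microglia markers sum to 3584, 2970, 9966 and 10943 CPM and the 10 BMDM markers to 3742, 2987, 212 and 412 CPM. In the microglia libraries, Ccr2 without WBRT and Ly6c2 and Plac8 with WBRT were at 0 counts. All 10 microglia markers were also detected in both BMDM libraries. With 1 library per group there is no replicate and no test across samples. The 95% intervals below are exact Poisson for a level and exact conditional for a ratio. Those of a difference in log2 ratio between the sorts use a normal approximation. All of them cover counting error only and treat each transcript as independent. Fewer cells carrying a transcript and fewer transcripts per cell cannot be told apart in a summed level.

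The repair genes were weakly detected. Of the 33 measured genes, 14 reached 20 CPM in at least 1 library and 19 stayed below it in all 4. A single count equals 0.790, 0.398, 1.14 and 1.54 CPM. A well held a median of 2, 3, 2 and 1 counts over all 33 genes, and 23.9%, 9.54%, 22.9% and 40.4% of wells held none. The shares also reflect depth: after thinning each well to 1000 transcripts an expected 36.9%, 36.3%, 38.0% and 29.0% of wells held at least 1, against 76.1%, 90.5%, 77.1% and 59.6% unthinned. The thinned share was lowest in microglia with WBRT and about equal in the other libraries.

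Summed over all 33 genes, the repair transcripts made up 534 (495 to 576), 487 (460 to 515), 549 (501 to 600) and 410 (362 to 462) CPM. Both libraries without WBRT were at about the same level, and microglia with WBRT were the lowest. In BMDM the sum with WBRT was 0.91 times that without (0.83 to 1.003). In microglia it was 1.34-fold lower with WBRT (1.15 to 1.56), a direction that was not kept once the wells rich in cell cycle transcripts were left out. The log2 ratio in BMDM was 0.29 above that in microglia (0.03 to 0.54). At a minimum of 3000 counts per well the microglial log2 ratio of -0.42 became -0.21 (-0.46 to 0.03), which includes no change. In wells under 20% ERCC it was -0.26 (-0.51 to -0.01). Genes within the sum differed in direction: in microglia 20 genes were lower and 13 higher with WBRT, and of a net difference of -139 CPM, Lig1 contributed -51.4, H2afx -37.6 and Msh6 -23.8 CPM. In BMDM 16 genes were lower and 17 higher, with Lig1 at -29.2, Polb at -25.1, H2afx at -18.4 and Rpa3 at -16.9 CPM, and Parp1 at 33.4 CPM in the other direction.

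Few single genes differed by 2-fold. A gene was counted when it reached 20 CPM in 1 of the 2 libraries, its CPM differed at least 2-fold and the interval of the ratio excluded 1. In BMDM 2 of 11 repair genes of that level (18.2%), Rpa3 and Lig1, passed, both lower with WBRT, beside 15.0% of all 6551 genes of that level (7.56% lower and 7.45% higher). In microglia 3 of 12 (25.0%), H2afx, Lig1 and Msh6, passed, all lower, beside 19.9% of all 6723 genes (8.70% lower and 11.2% higher). Both shares are near those over all genes, given the few genes counted. No repair gene passed in the higher direction in either sort. The median log2 ratio on the CPM + 5 scale was -0.27 over the 11 genes in BMDM, beside 0.08 over all genes, and -0.16 over the 12 genes in microglia, beside 0.06.

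**Figure D1:**
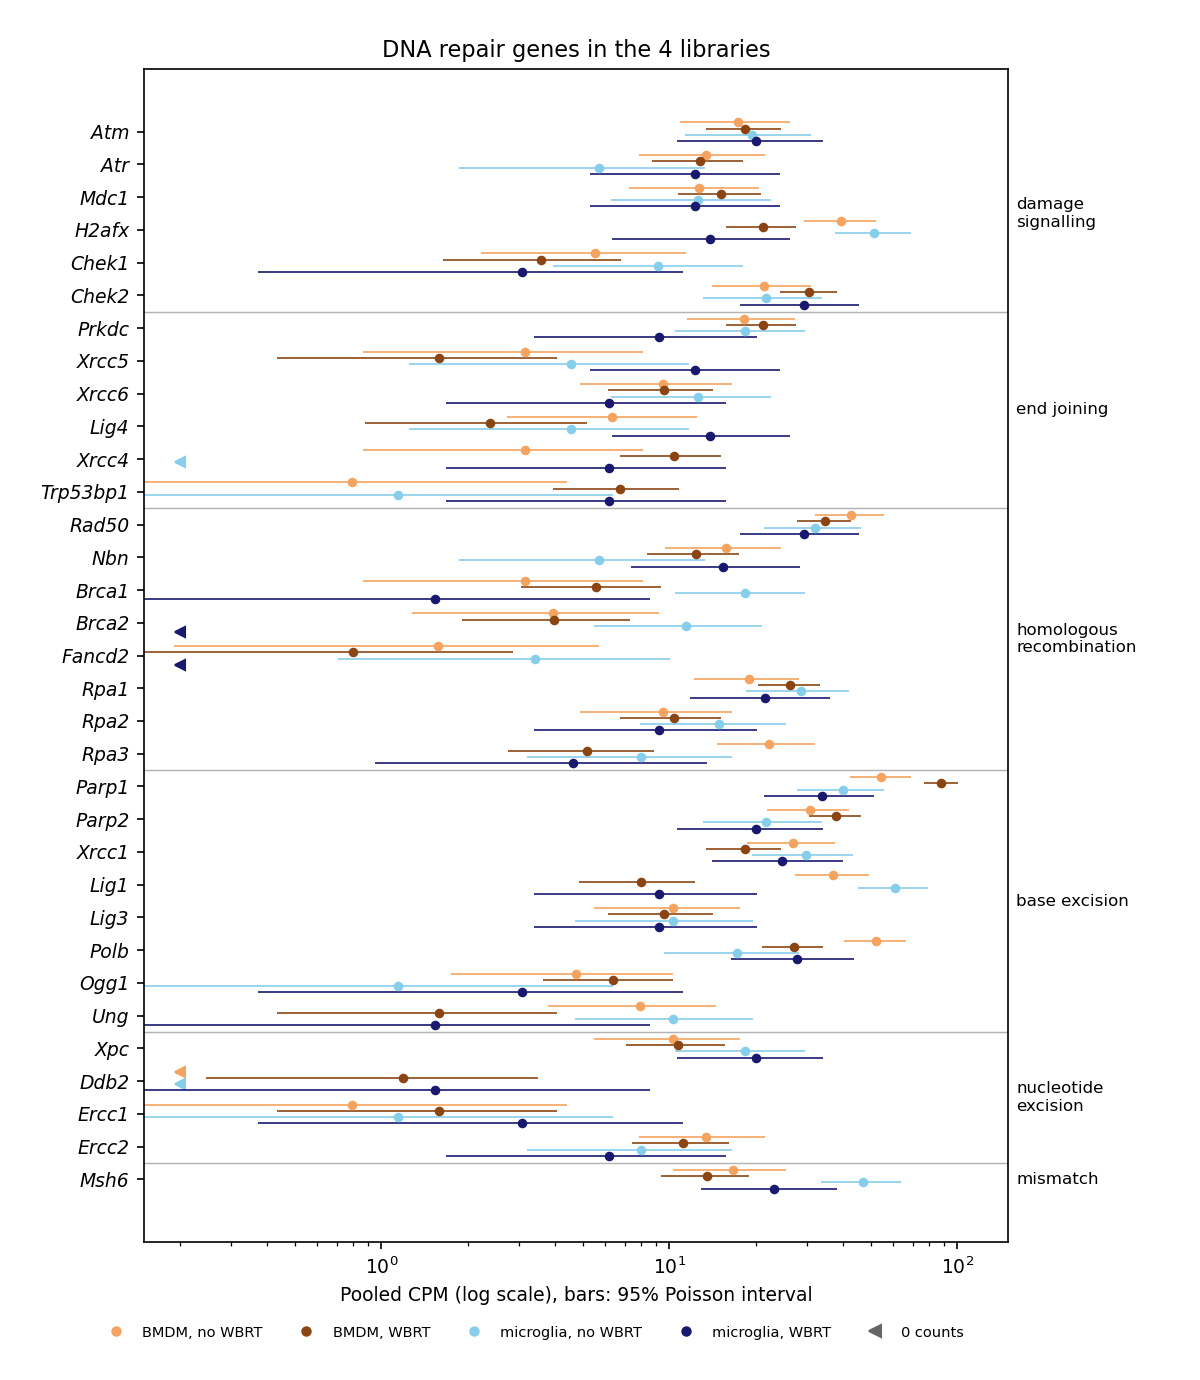
Pooled CPM (log axis) of each of the 33 measured repair genes in the 4 libraries, grouped by pathway, with 95% Poisson intervals as bars (cut off at the left edge where they run below it) and triangles for 0 counts. Lig1 and H2afx stand higher without WBRT in both sorts, Parp1 stands highest in BMDM with WBRT, and most other genes lie below 30 CPM with overlapping intervals.

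Among the 6 genes that sense a break and pass on the signal, H2afx was the only one past 2-fold, in microglia. Their summed level was 110, 101, 120 and 90.9 CPM. ATM, the kinase that responds to double-strand breaks, was encoded by 22, 46, 17 and 13 counts of Atm, or 17.4, 18.3, 19.4 and 20.03 CPM. The 4 levels of Atm lie within each other's intervals, with ratios with over without WBRT of 1.05 (0.62 to 1.84) in BMDM and 1.03 (0.46 to 2.25) in microglia. Atr, the kinase that responds to single-stranded DNA, had 17, 32, 5 and 8 counts. Mdc1, the adaptor that binds marked H2AX, had 16, 38, 11 and 8 counts, and its ratios were 1.20 (0.65 to 2.30) and 0.98 (0.34 to 2.67). At this depth the intervals of Mdc1 in both sorts and of Atm in microglia include both no change and a doubling.

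Of the checkpoint kinase genes, Chek2 was the better covered. Chek2, which acts downstream of ATM, had 21.3, 30.6, 21.7 and 29.3 CPM, somewhat higher with WBRT in each sort. Its ratios of 1.44 (0.92 to 2.32) in BMDM and 1.35 (0.67 to 2.69) in microglia both include 1. Chek1, which acts downstream of ATR and in unperturbed replication, had only 7, 9, 8 and 2 counts.

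H2afx, which encodes the histone variant H2AX, was at 39.5, 21.1, 51.4 and 13.9 CPM (50, 53, 45 and 9 counts). It was higher in both libraries without WBRT than in either library with it. With WBRT it was 3.71-fold lower in microglia (1.79 to 8.63) and 1.87-fold lower in BMDM (1.25 to 2.81). In microglia the log2 ratio of -1.89 became -0.89 (-2.49 to 0.46) without the wells in which Malat1, a nuclear RNA, was under 1000 CPM (70 of 157 wells without and 106 of 151 with WBRT), an interval that includes no change. In BMDM the log2 ratio of -0.91 became -0.49 (-1.32 to 0.35) without the cycling wells described further on. It was -0.47 (-1.47 to 0.64) without the dendritic-marked wells described with Polb, and both intervals include no change. A single well held 12 of the 50 counts in BMDM without WBRT. The gene lies at chr9:44334694-44336077 on the plus strand (GRCm38, GENCODE M21).

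End joining genes stood at 41.1, 51.7, 41.2 and 53.9 CPM over 6 genes, and their ratios with over without WBRT were 1.26 (0.91 to 1.77) in BMDM and 1.31 (0.80 to 2.15) in microglia. Both ratios include 1 and differ by less than their counting error. The microglial log2 ratio of 0.39 depended on the setting. It was 0.84 (0.08 to 1.61) at a minimum of 3000 counts per well and 0.83 (0.09 to 1.57) in wells under 20% ERCC. Without the low-Malat1 wells it was 0.915 (0.11 to 1.72), and these intervals exclude no change. With wells weighted alike or thinned it was -0.063 and -0.016. Prkdc, which encodes the catalytic subunit of DNA-PK, was the leading gene of the group in the first 3 libraries, with 18.2, 21.1, 18.3 and 9.24 CPM (23, 53, 16 and 6 counts). Its microglial ratio of 0.51 (0.16 to 1.36) includes 1.

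The Ku subunits that bind the broken end were thinly covered. Xrcc6 (Ku70) had 12, 24, 11 and 4 counts, and Xrcc5 (Ku80) had 4, 4, 4 and 8. The ligation step, made up of Lig4 and its partner Xrcc4, had 8, 6, 4 and 9 counts of Lig4 and 4, 26, 0 and 4 of Xrcc4. In BMDM, Xrcc4 was 3.27-fold higher with WBRT (1.14 to 12.9) at levels of 3.16 and 10.3 CPM, below the level required for the count above. Trp53bp1, whose product 53BP1 shields ends from resection, had 1, 17, 1 and 4 counts, a ratio in BMDM of 8.56 (1.34 to 358). Its single count without WBRT carries that ratio, and 2130 of its exonic bases overlap Tubgcp4 on the opposite strand.

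**Figure D2:**
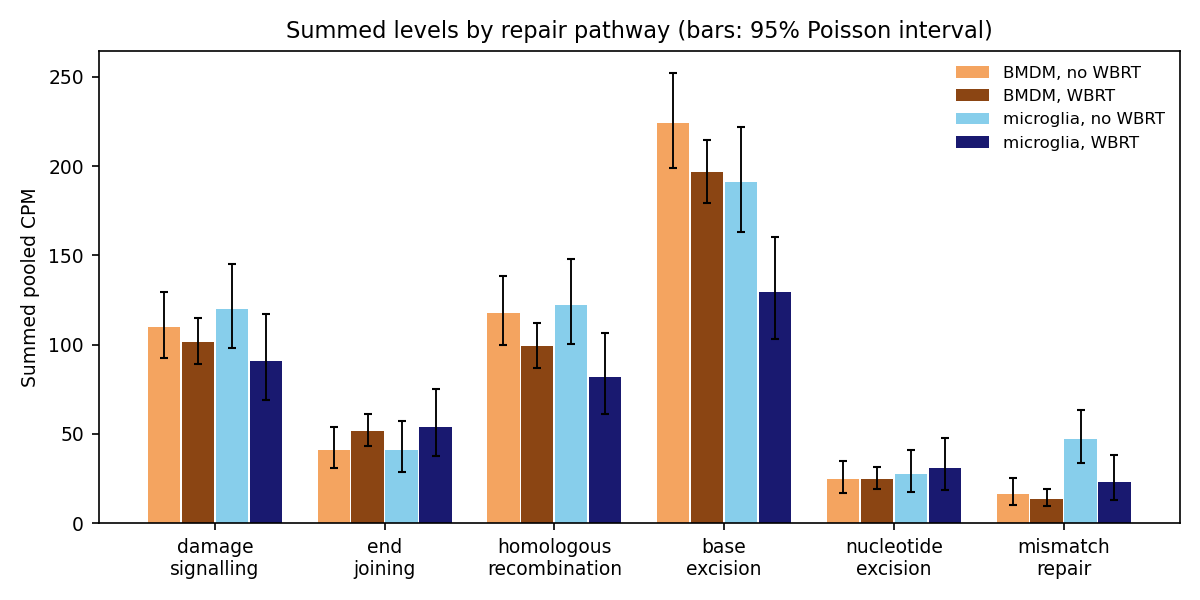
Summed pooled CPM of the repair genes of each pathway in the 4 libraries, with 95% Poisson intervals as bars. Base excision genes have the highest sum and are lowest in microglia with WBRT, end joining is slightly higher with WBRT in both sorts with overlapping intervals, and Msh6, the only mismatch repair gene, is highest in microglia without WBRT.

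Homologous recombination genes sum to 118, 99.1, 122 and 81.7 CPM over 8 genes. With WBRT the sum was 1.498-fold lower in microglia (1.07 to 2.12), and in BMDM the ratio of 0.84 (0.68 to 1.04) includes 1. At a minimum of 3000 counts per well the microglial log2 ratio was -0.54 (-1.11 to 0.001), which includes no change. The MRN complex holds and trims the ends, and Rad50, its ATPase, was the leading gene of the group at 42.7, 34.6, 32.0 and 29.3 CPM, with ratios of 0.81 (0.57 to 1.16) and 0.91 (0.48 to 1.70). Nbn, its regulatory subunit, had 20, 31, 5 and 10 counts.

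The counts of Brca1 and Brca2, breast cancer susceptibility genes, and of the Fanconi anemia gene Fancd2 came, within microglia, almost wholly from the library without WBRT. Brca1 had 4, 14, 16 and 1 counts, and its ratio in microglia was 0.08 (0.002 to 0.54). Brca2 had 5, 10, 10 and 0 counts. In microglia it was 2.48-fold lower with WBRT against a floor of 3 counts, and the interval of its ratio runs from 0 to 0.60. Fancd2 had 2, 2, 3 and 0 counts, too few for a comparison. In microglia without WBRT, a single well held 7 of the 10 Brca2 counts and another held 5 of the 16 Brca1 counts, so each rests on few cells (4 wells and 7 wells). In BMDM, Brca1 and Brca2 had ratios of 1.76 (0.55 to 7.36) and 1.01 (0.31 to 3.76).

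The subunits of replication protein A, which coats single-stranded DNA, differed from each other in pattern. The large subunit gene Rpa1 had 19.0, 26.3, 28.6 and 21.6 CPM, with ratios of 1.39 (0.86 to 2.31) in BMDM and 0.75 (0.36 to 1.51) in microglia. Rpa2 had 12, 26, 13 and 6 counts. The small subunit gene Rpa3 stood at 22.1, 5.17, 8.003 and 4.62 CPM (28, 13, 7 and 3 counts), high in BMDM without WBRT and low in the other 3 libraries. It was 4.28-fold lower with WBRT in BMDM (2.14 to 8.99). Its 28 counts came from 24 wells.

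Base excision genes were the most abundant group, with 224, 197, 191 and 129 CPM over 8 genes. With WBRT their sum was 1.48-fold lower in microglia (1.13 to 1.94), and in BMDM the ratio of 0.88 (0.76 to 1.02) includes 1. Most of the microglial difference came from Lig1, at -51.4 CPM, with Polb at 10.6 and Ogg1 at 1.94 CPM in the other direction. In BMDM Lig1 contributed -29.2 and Polb -25.1 CPM, and Parp1 33.4 CPM in the other direction. Base and nucleotide excision together, a sum that also holds Lig1, had log2 ratios of -0.17 (-0.37 to 0.03) in BMDM and -0.45 (-0.81 to -0.09) in microglia. The BMDM value became 0.40 (0.04 to 0.77) without the dendritic-marked wells described with Polb. At a minimum of 3000 counts per well the microglial value was -0.24 (-0.65 to 0.16), which includes no change. The break sensor Parp1, which marks nicks with poly(ADP-ribose), was the leading repair gene in 3 of the 4 libraries, at 54.5, 87.9, 40.0 and 33.9 CPM (69, 221, 35 and 22 counts). It was highest in BMDM with WBRT, with an interval (76.7 to 100) above those of the other 3 libraries. With WBRT it was 1.61-fold higher in BMDM (1.23 to 2.15), and in microglia the ratio was 0.85 (0.47 to 1.49). Parp1 counts appeared in 48, 122, 27 and 15 wells, and after thinning in an expected 5.06%, 7.96%, 4.52% and 3.10% of wells, against 20.5%, 46.6%, 17.2% and 9.93% unthinned. Parp2, its smaller relative, had 30.8, 37.8, 21.7 and 20.03 CPM, with ratios of 1.23 (0.84 to 1.83) and 0.92 (0.42 to 1.97). The scaffold gene Xrcc1 had 26.9, 18.3, 29.7 and 24.6 CPM, and both of its ratios include 1.

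Lig1 showed the largest difference of any repair gene of at least 20 CPM in both sorts. It encodes DNA ligase I, which joins Okazaki fragments and closes long-patch base excision repair. Its levels were 37.1, 7.96, 60.6 and 9.24 CPM (47, 20, 53 and 6 counts), high in both libraries without WBRT and low in both with it, and the intervals of the high and the low pair did not overlap. With WBRT it was 4.67-fold lower in BMDM (2.71 to 8.31) and 6.56-fold lower in microglia (2.82 to 18.7). Lig3, the ligase that works with XRCC1, had 10.3, 9.55, 10.3 and 9.24 CPM which lie within each other's intervals, with ratios of 0.93 (0.45 to 1.99) and 0.90 (0.26 to 2.83).

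Polb, which encodes the gap-filling polymerase beta, had 52.1, 27.1, 17.1 and 27.7 CPM (66, 68, 15 and 18 counts). It was highest in BMDM without WBRT. With WBRT it was 1.93-fold lower in BMDM (1.35 to 2.74), and in microglia the ratio was 1.62 (0.77 to 3.45). At a minimum of 3000 counts per well the log2 ratio in BMDM was -0.43 (-1.02 to 0.18), and with wells weighted alike or thinned the microglial one was -0.029 and -0.23. In BMDM without WBRT, Polb stood at 66.3 CPM in the wells with at least 3 counts of 10 dendritic cell markers and at 25.2 CPM in the other wells. There were 127, 39, 32 and 29 such wells, and the dendritic markers sum to 1940, 164, 281 and 317 CPM. In the microglia libraries nearly all of that sum was Fscn1, at 263 and 308 CPM, so the mark there rests mainly on that gene. With the dendritic-marked wells left out, the log2 ratio of Polb in BMDM changed from -0.95 to 0.19 (-0.75 to 1.26). That of Lig1 in BMDM changed from -2.22 to -0.90 (-2.23 to 0.60). The glycosylases had few counts. Ung, which removes uracil, had 10, 4, 9 and 1, and Ogg1, which removes oxidized guanine, had 6, 16, 1 and 2. Ung was 4.96-fold lower with WBRT in BMDM (1.43 to 21.7), and its microglial ratio was 0.15 (0.003 to 1.08).

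Nucleotide excision genes differed little, at 24.5, 24.7, 27.4 and 30.8 CPM over 4 genes, with ratios of 1.01 (0.64 to 1.60) and 1.12 (0.59 to 2.12). Xpc, the damage recognition gene, had 10.3, 10.7, 18.3 and 20.03 CPM. Ercc2, which encodes the helicase XPD, had 17, 28, 7 and 4 counts, and Ercc1, a subunit of the incision nuclease, had 1, 4, 1 and 2. Ddb2, the damage-binding gene known as a p53 target, had 0, 3, 0 and 1 counts. No direction can be read for Ercc1 and Ddb2 at this depth.

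Msh6, which encodes a subunit of the mismatch-recognizing MutSalpha complex, stood at 16.6, 13.5, 46.9 and 23.1 CPM (21, 34, 41 and 15 counts). It was highest in microglia without WBRT, where it was 2.83-fold above BMDM without WBRT (1.63 to 5.03). In BMDM without WBRT it stood at 8.44 CPM in the dendritic-marked wells and at 32.0 CPM in the others. With WBRT it was 2.03-fold lower in microglia (1.10 to 3.94), and in BMDM the ratio was 0.82 (0.46 to 1.48). Without the dendritic-marked wells the log2 ratio in BMDM changed from -0.29 to -1.26 (-2.24 to -0.22), which excludes no change. The microglial difference was just past 2-fold, and its log2 ratio of -1.02 became -0.76 (-1.80 to 0.19) at a minimum of 3000 counts per well and -0.99 (-2.003 to 0.002) without the highest well. It was -0.62 (-1.72 to 0.43) without the cycling wells described further on, and just under 2-fold, at -0.98, without 1 astrocyte-marked well.

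**Figure D3:**
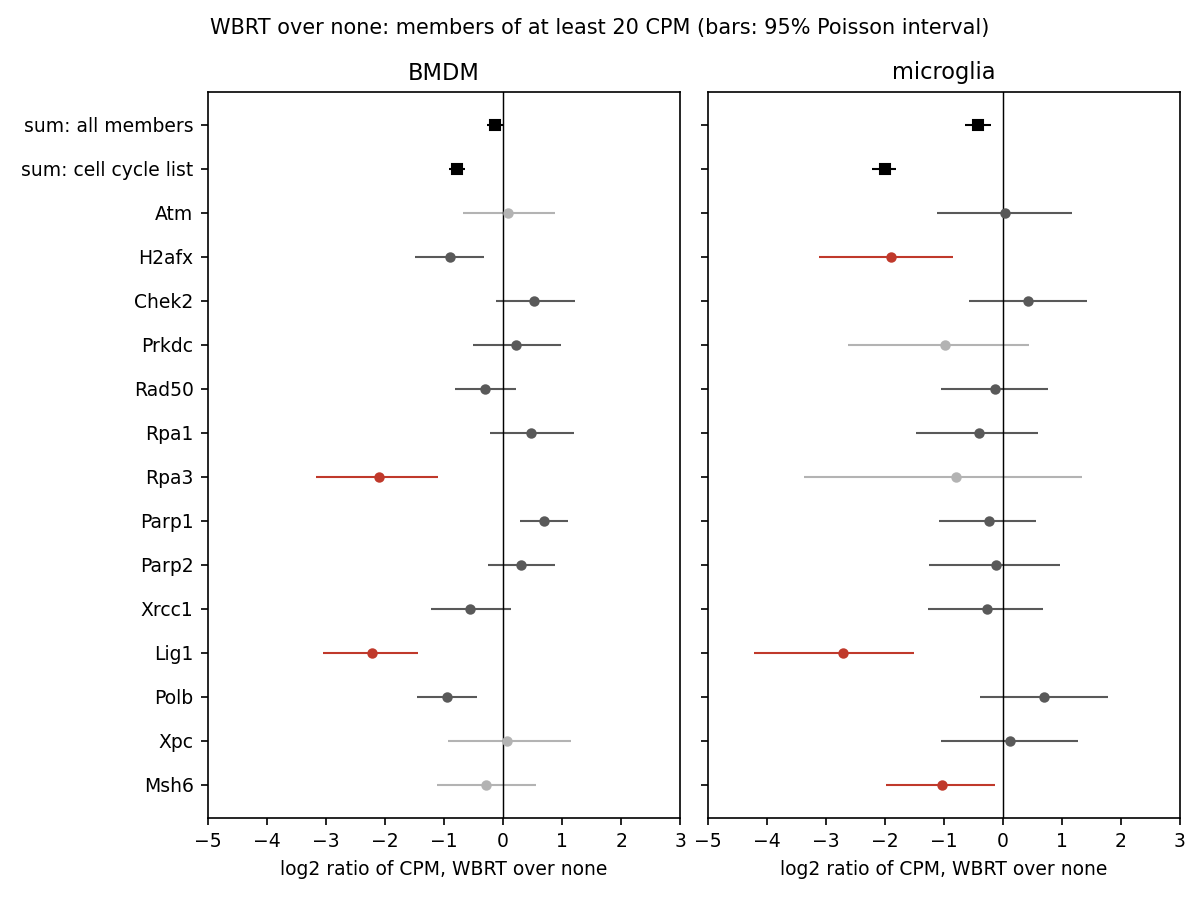
Log2 ratio of pooled CPM, WBRT over none, in BMDM (left) and microglia (right) for the summed repair genes, the summed 42 cell cycle genes and the 14 repair genes that reached 20 CPM in some library, with 95% intervals as bars. Red marks genes past 2-fold (Rpa3 and Lig1 in BMDM, and H2afx, Lig1 and Msh6 in microglia), and light grey marks genes below 20 CPM in both libraries of that sort.

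The comparison of the sorts asked whether the repair genes had other levels in BMDM than in microglia. Without WBRT, 3 of 11 repair genes passed 2-fold (27.3%), beside 21.7% of all genes: Rpa3 at 2.76-fold (1.18 to 7.50) and Polb at 3.04-fold (1.72 to 5.74) were higher in BMDM, and Msh6 was lower. With WBRT, only Parp1 of 12 genes passed (8.33%), beside 19.3% of all genes, at 2.59-fold higher in BMDM (1.67 to 4.23). The summed level was 0.97 times as high in BMDM as in microglia without WBRT (0.86 to 1.10) and 1.19 times as high with WBRT (1.04 to 1.36).

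The starts of 4 of these genes are shown because the data turn on them: Lig1, Msh6 and Rpa3, which passed 2-fold in the WBRT comparisons, and Parp1, the most abundant repair gene. Each window runs from 250 bases before to 50 bases after a RefSeq transcript start on GRCm38.p6, 5′ to 3′ on the gene's strand. Capitals mark matches on either strand to the E2F letters TTTCGCGC or TTTGGCGC, or to the CCAAT box. These E2F letters are forms of the site of the factors that control replication genes, and other forms were not searched. The windows are chr7:13278576-13278875 (plus strand, one of 3 listed for Lig1), chr17:87974800-87975099 (plus, Msh6), chr6:8259092-8259391 (minus, Rpa3) and chr1:180568641-180568940 (plus, Parp1). The Lig1 window was picked from the 3 because it alone holds the E2F letters. In GENCODE M21 the Lig1 gene begins upstream of that window, at chr7:13277283.
Lig1: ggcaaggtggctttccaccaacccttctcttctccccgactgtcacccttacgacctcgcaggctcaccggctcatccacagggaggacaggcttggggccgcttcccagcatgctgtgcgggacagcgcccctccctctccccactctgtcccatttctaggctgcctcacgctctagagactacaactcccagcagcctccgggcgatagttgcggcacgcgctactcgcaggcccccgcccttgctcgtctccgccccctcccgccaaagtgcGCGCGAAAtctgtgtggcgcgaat
Msh6: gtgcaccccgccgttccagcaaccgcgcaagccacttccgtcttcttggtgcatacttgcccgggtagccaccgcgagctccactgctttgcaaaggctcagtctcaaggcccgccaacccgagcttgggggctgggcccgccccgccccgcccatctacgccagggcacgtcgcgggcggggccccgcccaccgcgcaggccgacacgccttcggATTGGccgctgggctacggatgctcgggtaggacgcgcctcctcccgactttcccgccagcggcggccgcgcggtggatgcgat
Rpa3: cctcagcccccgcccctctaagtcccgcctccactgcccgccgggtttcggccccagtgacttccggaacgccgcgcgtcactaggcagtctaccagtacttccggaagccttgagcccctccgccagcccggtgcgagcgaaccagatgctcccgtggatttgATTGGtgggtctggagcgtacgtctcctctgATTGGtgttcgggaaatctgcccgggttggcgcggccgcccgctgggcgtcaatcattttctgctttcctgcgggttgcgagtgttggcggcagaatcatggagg
Parp1: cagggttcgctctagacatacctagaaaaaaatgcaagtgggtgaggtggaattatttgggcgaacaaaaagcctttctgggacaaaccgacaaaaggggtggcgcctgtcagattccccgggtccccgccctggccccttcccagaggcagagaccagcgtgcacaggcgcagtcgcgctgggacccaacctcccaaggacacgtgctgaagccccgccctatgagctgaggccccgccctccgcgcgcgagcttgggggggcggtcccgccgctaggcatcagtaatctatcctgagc
In the Lig1 window shown, the E2F letters are read on the opposite strand and begin 26 bases after that window's transcript start. Among the 25 measured repair genes with a RefSeq window, Lig1 was the only one to hold them (4%), beside 0.929% of 27025 genes. The CCAAT letters, which here appear as their reverse complement in Msh6 and Rpa3, occurred in 13 of the 25 (52%), beside 41.1% of all genes. The Parp1 window holds neither. H2afx and Polb are among the 8 genes with no entry. A match describes the letters and not the binding of a factor.

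Most repair transcripts of microglia without WBRT lay in a minority of wells that also carried cell cycle transcripts. Wells were called cycling when they held at least 3 counts of 42 cell cycle genes, none of them a repair gene described here, and these made up at least 0.1% of the well's counts, a limit chosen after seeing the data. This gave 20, 11, 51 and 13 wells, and 57, 27, 71 and 23 wells lay between 0.05% and 0.2%, near the limit. The cell cycle genes sum to 661, 383, 1462 and 365 CPM, 1.73-fold lower with WBRT in BMDM (1.57 to 1.90) and 4.003-fold lower in microglia (3.48 to 4.62). Top2a, a marker of dividing cells, was at 49.0, 14.3, 99.5 and 1.54 CPM. Mki67, another such marker, was at 26.1, 33.9, 54.9 and 20.03 CPM, lower with WBRT in microglia and 1.30 times as high with WBRT in BMDM (0.86 to 2.003).

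The cycling wells held 26.5%, 11.2%, 61.5% and 6.77% of the repair counts but only 11.5%, 5.77%, 34.9% and 5.38% of all transcripts. In these wells the repair genes sum to 1230, 945, 966 and 515 CPM, and in the other wells to 444, 459, 325 and 404 CPM. The level inside was 2.77 (2.32 to 3.30), 2.06 (1.71 to 2.46), 2.97 (2.47 to 3.59) and 1.28 (0.74 to 2.06) times that outside, and these ratios compare wells of 1 library. Cycling wells were deeper in both BMDM libraries, at a median of 5808 against 4275 and 14314 against 8732 counts, and equally deep in microglia without WBRT, at 4789 against 4803.

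**Figure D4:**
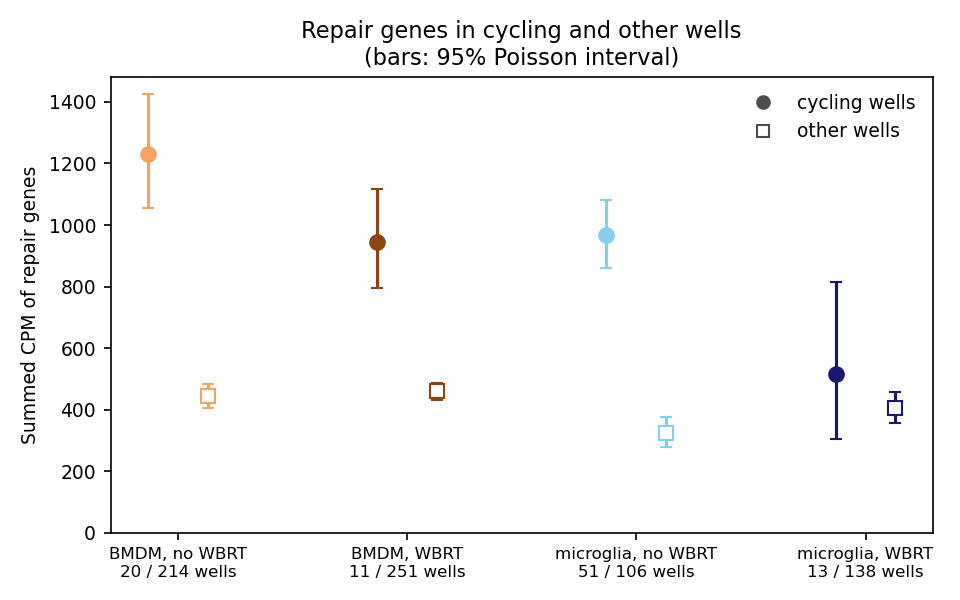
Summed CPM of the 33 repair genes in cycling wells (filled circles) and in the other wells (open squares) of each library, with 95% Poisson intervals as bars and the number of wells of each kind under the axis. The filled circles stand well above the squares in the first 3 libraries, and among the squares microglia without WBRT are the lowest.

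The genes differed in how far they followed the cycling wells. In microglia without WBRT, 26 of the 31 repair genes with counts had a share in cycling wells above the 34.9% that these wells hold of all transcripts, and the median share was 62.5%. The 26 include Ogg1 and Ercc1 with 1 count each, Fancd2 with 3, and Xrcc5 and Lig4 with 4 each. How many of all genes lie above the share of transcripts was not counted in any library, so whether repair genes differ from other genes here was not tested. Brca1 had 93.8% of its 16 counts there, Rpa2 92.3% of 13, Brca2 90.0% of 10, Lig1 81.1% of 53, H2afx 73.3% of 45 and Rpa1 72.0% of 25. Lig1 stood at 141 CPM in the cycling wells and 17.6 CPM in the others, and H2afx at 108 and 21.1 CPM. At the other end, Xrcc1 with 34.6% of 26 counts, Polb with 33.3% of 15 and Parp2 with 31.6% of 19 lay at the share of all transcripts. Msh6 was in between, with 51.2% of 41 counts. In BMDM, 24 of 32 genes without WBRT and 23 of 33 with it lay above the share of all transcripts, with median shares of 17.8% and 8.82%. In microglia with WBRT, with only 13 cycling wells, 12 of 31 genes lay above it and 19 below, and the median share was 0%.

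**Figure D5:**
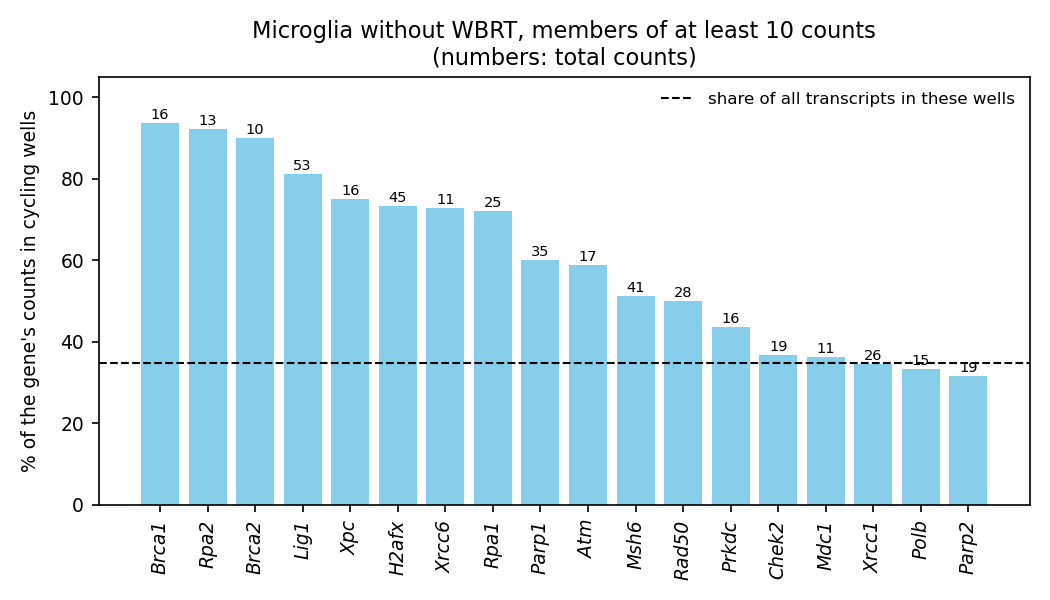
Percent of each gene's counts that lay in cycling wells of microglia without WBRT, for the 18 repair genes with at least 10 counts (total counts above each bar), with the share of all transcripts in these wells as a dashed line. Brca1, Rpa2, Brca2 and Lig1 lie above 80%, while Xrcc1, Polb and Parp2 lie at the line.

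With the cycling wells left out, microglia with WBRT were no longer the lower library. The summed repair genes were then 1.24-fold higher with WBRT in microglia (1.02 to 1.51), at 404 against 325 CPM, and the ratio in BMDM was 1.03 (0.93 to 1.15). The wells left out held 34.9% of microglial transcripts without and 5.38% with WBRT. In the remaining wells the cell cycle genes were still lower with WBRT, 2.18-fold in microglia (1.76 to 2.73) and 1.40-fold in BMDM (1.22 to 1.61). With all wells of at least 3 cell cycle counts left out instead, the microglial log2 ratio was 0.28 (-0.13 to 0.71), which includes no change. None of the 11 repair genes of at least 20 CPM in microglia passed 2-fold outside cycling wells, beside 19.6% of all genes. Lig1 there had 10 counts without and 5 with WBRT, a ratio of 0.46 (0.12 to 1.49), and H2afx had 12 and 8, a ratio of 0.62 (0.22 to 1.64). End joining outside cycling wells was 2.35-fold higher with WBRT in microglia (1.21 to 4.87), on 13 counts without and 33 with WBRT, and under the other definition its log2 ratio was 1.11 (-0.54 to 3.16). Xrcc5 and Lig4 had 0 counts there without WBRT and 8 and 7 with it. In BMDM outside cycling wells the ratios were 1.76 (1.30 to 2.40) for Parp1 and 0.53 (0.37 to 0.77) for Polb. They were 0.42 (0.21 to 0.86) for Lig1 and 0.27 (0.12 to 0.55) for Rpa3, and these 4 intervals exclude 1. The ratio of H2afx was 0.71 (0.40 to 1.28), which includes 1. With all wells of at least 3 cell cycle counts left out instead, the log2 ratio of Lig1 in BMDM was -0.27 (-1.68 to 1.22), which includes no change. The share of cycling cells in each plate was measured on 1 plate per group, and its part in the differences was not tested.

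The p53 targets Cdkn1a and Mdm2, common readouts of the damage response, were higher with WBRT in both sorts. Cdkn1a, the cell cycle inhibitor p21, was 1.80-fold higher in BMDM (1.66 to 1.96) and 2.13-fold higher in microglia (1.95 to 2.33), and Mdm2 1.59-fold (1.22 to 2.09) and 1.47-fold (1.09 to 1.97). Only Cdkn1a in microglia passed 2-fold, beside 11.2% of all genes that were higher there. The p53 gene itself, Trp53, was 2.94-fold lower with WBRT in microglia (1.86 to 4.81), at 109 and 37.0 CPM. In BMDM the ratio of Trp53 was 1.06 (0.80 to 1.41).

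A wider list of 138 repair genes outside the 34, written down with earlier results of these data known, held 136 measured genes. In BMDM, 48 of these reached 20 CPM, 6 were lower past 2-fold with WBRT and 0 were higher, beside 7.56% lower and 7.45% higher of all genes. The lower ones with the largest ratios were Timeless, a replication fork protection gene, at 48.2 and 4.78 CPM, Brip1, a helicase partner of BRCA1, at 52.9 and 21.1 CPM, Aplf, an end joining factor, at 140 and 66.1 CPM, and Rnf168, a ubiquitin ligase at breaks, at 43.4 and 19.9 CPM. In microglia, 50 reached 20 CPM, 10 were lower and 2 were higher, beside 8.70% lower and 11.2% higher of all genes. Clspn, the adaptor of the replication checkpoint, had 20 and 0 counts. It was 4.95-fold lower with WBRT against a floor of 3 counts, and the interval of its ratio runs from 0 to 0.27. Pole, the leading-strand polymerase, was at 25.2 and 3.08 CPM, Fance, a Fanconi anemia core gene, at 45.7 and 9.24 CPM, and Timeless at 20.6 and 1.54 CPM. The higher ones were Parp3, a relative of Parp1, at 5.72 and 35.4 CPM (5 and 23 counts), and Mpg, an alkylbase glycosylase, at 3.43 and 21.6 CPM (3 and 14 counts).

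Markers of other cell types also differed between the libraries. Of the 10 dendritic markers noted with Polb, 10, 9, 5 and 5 had counts, with Clec9a at 0 in microglia without WBRT, Ccr7 at 0 in microglia with WBRT, and Flt3, Zbtb46 and Cd209a at 0 in both. Border macrophage markers sum to 286, 1382, 56.0 and 285 CPM, higher with WBRT in both sorts, and all 7 were detected in 3 of the 4 libraries, with Lyve1 at 0 in microglia without WBRT. Astrocyte markers sum to 30.0, 49.3, 101 and 910 CPM, and 1 well of microglia with WBRT held 88.2% of the last value and 5 of the 266 repair counts. Without that well the summed repair genes in microglia had a log2 ratio of -0.41, against -0.42 with it. Then 2 of 12 genes in place of 3 passed 2-fold, beside 18.3% of all genes, Msh6 being the one lost. The part of the border macrophage markers in the differences was not tested. Without the dendritic-marked wells the summed repair genes in BMDM had a log2 ratio of 0.10 (-0.12 to 0.32) in place of -0.13. Exons of 15 measured repair genes overlap a gene on the opposite strand, among them Lig1 (247 bases, Zswim9), Msh6 (34 bases, Fbxo11) and Xrcc4 (112 bases, Tmem167). Whether the counting used strand is not given in the sources used here.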

How the data were processed

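Single cells were processed on plates by a sequencing provider, per the labels' protocols. The authors' deposited values are expected counts of transcripts per gene and well, corrected for coinciding molecular identifiers: 100% of nonzero values matched, within 0.0051, the correction for 4096 identifiers. The build was GRCm38, per the submitters' processing notes, while aligner, counter, annotation and strand setting were not given in the sources used here. Groups follow the sample titles. Wells with at least 1000 counts outside ERCC and mitochondrial genes and under 50% ERCC were kept, and no doublet caller was run on plates sorted 1 cell per well. Counts were summed per library, rounded for intervals (scipy 1.17.1), and divided by endogenous counts. Folds needed 20 CPM, and log2 medians used CPM + 5. A 3-count floor equals 2.37, 1.19, 3.43 and 4.62 CPM. The interval was tested on simulated data. Gene positions and overlaps came from GENCODE M21, and promoter windows from RefSeq (GRCm38.p6). All 34 repair genes could be named, with up to 4 genes per direction of the wider list and the listed markers and readouts. The genes and lists were chosen with earlier results of these data known. Alternatives were other well minima, TMM factors (edgeR 4.0.16), equal weight per well, thinning (20 draws), left-out wells, other pseudocounts and folds. Those on cycling wells by share, Kcnq1ot1, ERCC under 20% and astrocyte-marked wells were added after seeing the data.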

Additional observations from a re-analysis of the deposited data

Results flagged for a closer look

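The ratio of Parp1 with over without WBRT differed between the sorts, with a log2 ratio in BMDM 0.93 above that in microglia (0.07 to 1.79, counting error only). The ratio of Polb differed the other way, by -1.64 (-2.74 to -0.54), and its log2 ratio changed sign in BMDM without the dendritic-marked wells and in microglia with wells weighted alike or thinned. Among genes below 20 CPM in every library, the interval also excluded 0 for Brca1, at 4.39 (1.06 to 7.71). It did so too for Lig4, at -3.00 (-5.29 to -0.72), and Nbn, at -1.79 (-3.54 to -0.04). The share of all genes with such an interval was not counted. None of these differences was tested across samples, since each group is 1 library.

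Repair gene transcripts were also present in the wells left out for low counts or high ERCC share. These held 9 counts in BMDM without WBRT, 10 in BMDM with WBRT, 30 in microglia without WBRT and 31 in microglia with WBRT, at 319, 220, 522 and 314 CPM of those wells' endogenous counts. Their level in left-out microglia wells without WBRT was close to that of the kept wells.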

How the results depend on the processing

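Of 218 alternative values for sums, counts and medians, 177 stayed within counting error or 1.5 times of the reported value, and of 285 for named genes 272 did. Among the 188 values that are log2 ratios of sums or medians over the genes, 26 had the other sign than the reported value, and among named genes 18 of 285. No paired analysis was possible because each group is 1 library. With the wells of at least 3 cell cycle counts left out, and then with the cycling wells by share left out, the log2 ratio in microglia became 0.28 and 0.31 for all repair genes, 0.68 and 0.31 for damage signalling, 1.11 and 1.23 for end joining, 0.51 and 0.54 for homologous recombination and -0.091 and 0.18 for excision repair. In BMDM it became 0.035 and 0.049 for all repair genes and 0.24 and 0.23 for damage signalling, and 0.047 for excision repair under the second. The counts past 2-fold became 1 of 9 and 1 of 9 in BMDM, beside 19.6% and 15.6% of all genes. In microglia they became 0 of 11 and 0 of 11, beside 18.3% and 19.6%. The medians became 0.035 and 0.037 in BMDM and 0.40 under the second in microglia. Without dendritic-marked wells the BMDM log2 ratios were 0.10 for all repair genes, 0.40 for excision repair, -1.26 for Msh6 and 0.19 for Polb. The BMDM median was then 0.16 and the microglial median -0.40. In BMDM 1 of 11 genes passed 2-fold under that setting, beside 16.6% of all genes. Without the low-Malat1 wells, microglial homologous recombination was at -1.12 and 6 of 17 genes passed, beside 22.1% of all genes. With every well weighted alike, 4 of 10 genes passed in BMDM, beside 17.8% of all genes. The medians were then -0.42 in BMDM and -0.63 in microglia. Thinned wells gave 1 of 11 genes past 2-fold in BMDM, beside 8.86% of all genes. In microglia they gave 1 of 10, beside 6.14%, and a median of -0.56. With no minimum level 5 of 33 genes passed in each sort, beside 12.6% of all genes in BMDM and 13.6% in microglia. The BMDM median was then 0.0047. At 1.5-fold 5 of 11 genes passed in BMDM, beside 32.6% of all genes. A minimum of 3000 counts per well put the BMDM median at -0.13. Why these values moved was not tested. The median of all microglial genes moved by about 0.1 under low-Malat1 removal (0.17), equal weights (-0.04) and thinning (-0.03), from 0.06. Depth limits every gene under about 20 CPM, most of all in microglia with WBRT, the shallowest library.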
